A study of Xenopus laevis with 15 samples.

Results

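Clawed frog embryos (Xenopus laevis) kept in lead 630 were compared with control embryos kept in water, gene by gene and in both directions. The 10 libraries were chosen by their labelled treatment, 5 from lead 630 and 5 from controls, out of 15 libraries in the series. The other 5 libraries, from lead 210, entered the statistical fit only. Each library came from a pool of 3 individuals. Lead(II) nitrate was added about 48 h after fertilization, near Nieuwkoop and Faber (NF) stage 29, and the exposure ran for 96 h at 21 °C, so that all groups were 6 days old at sampling. Sample labels state the lead level in ng/L but the protocol states it in µg/L, so the groups carry no unit here. All embryos were bred from an established colony, and neither the sex of the embryos nor a strain is labelled.

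Lead is a metal that binds the thiol groups of cysteine and glutathione and can take the place of calcium and zinc in proteins. Cells meet reactive metals and foreign chemicals with antioxidant genes, with metal-binding proteins, and with enzymes that couple sulfate, methyl groups or glutathione to small molecules so that they can be excreted. At these stages the tadpole is laying down cartilage, its retina and the pigment epithelium behind it are becoming functional, and its gut, liver and pronephros are differentiating.

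Gene expression was measured as read counts, 10.8 to 24.7 M per library at lead 630 (M, in units of 1e+06; 18.1 ± 5.91 M, SD, n = 5) and 17.3 ± 4.57 M in controls (SD, n = 5). Levels are given as counts per 1e+06 counts (CPM), always for libraries A to E in that order, and 3 counts, taken as the floor, were worth 0.122 to 0.277 CPM. The frog carries many genes as homeologs marked .L and .S, each counted alone. Marker lists of skeletal muscle, heart, neurons, retina, epidermis and liver were all measured, as the whole-body label says. On the first principal component, which held 24.9% of the variance, the lead 630 libraries scored 20.74, −3.16, 21.88, 29.35 and 28.63, against −42.33, −42.51, −15.99, 4.91 and −1.51 in controls. Lead 630 B thus lay among the controls, and controls A and B lay apart from the others. Control B also stood out for digestive enzyme genes: the 17 tested genes of the exocrine pancreas summed to 192, 235, 190, 157 and 189 CPM at lead 630 and to 125, 2481, 186, 146 and 147 CPM in controls. For the lists with most calls, and for genes whose test is given and that had passed every omission of a single library, values without controls A and B are therefore added where a call ended then. In pooled whole embryos, fewer cells of a type and less RNA per cell cannot be told apart.

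Among 27060 genes tested, 617 (2.28%) passed an adjusted p of 0.05 and are said to have risen or fallen (edgeR's quasi-likelihood test, Benjamini-Hochberg adjustment over all genes). Higher at lead 630 were 535 genes (1.98% of those tested), and lower were 82 (0.303%). The median log2 fold change was 0.65 among the genes that rose, −0.56 among those that fell and −0.005 over all tested genes. A change of at least 2-fold was reached by 159 of the genes that rose and by 19 of those that fell. Oxidant and metal genes made up 74 (13.8%) of the increases and 2 (2.44%) of the decreases, which leaves 461 increases and 80 decreases outside those lists. Lists were chosen with earlier results of these data known, so their rank by share of calls may partly follow that choice. Members were matched by gene symbol, and 101 increases and 15 decreases had placeholder symbols such as LOC numbers. Some fully named relatives of oxidant list members were not in that list either, such as akr1c4.S and akr1c8p.S beside akr1c1.L and akr1c2.L. The oxidant and metal shares may therefore be too low. All 5 lead 630 libraries lay above all 5 controls for 474 of the 535 increases and below them for 60 of the 82 decreases. Over all tested genes such a separation was seen upward for 2.86% and downward for 0.983%.

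When each of the 10 libraries was left out in turn, 353 of the 535 increases (66%) and 26 of the 82 decreases (31.7%) passed every time. Without controls A and B, 329 genes were higher and 48 lower, of which 310 and 31 were also called with all libraries. Of the genes that had passed every single omission, 291 of 353 increases and 21 of 26 decreases passed then too. Unless another count is given, the genes described below passed with each library left out.

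**Figure D1:**
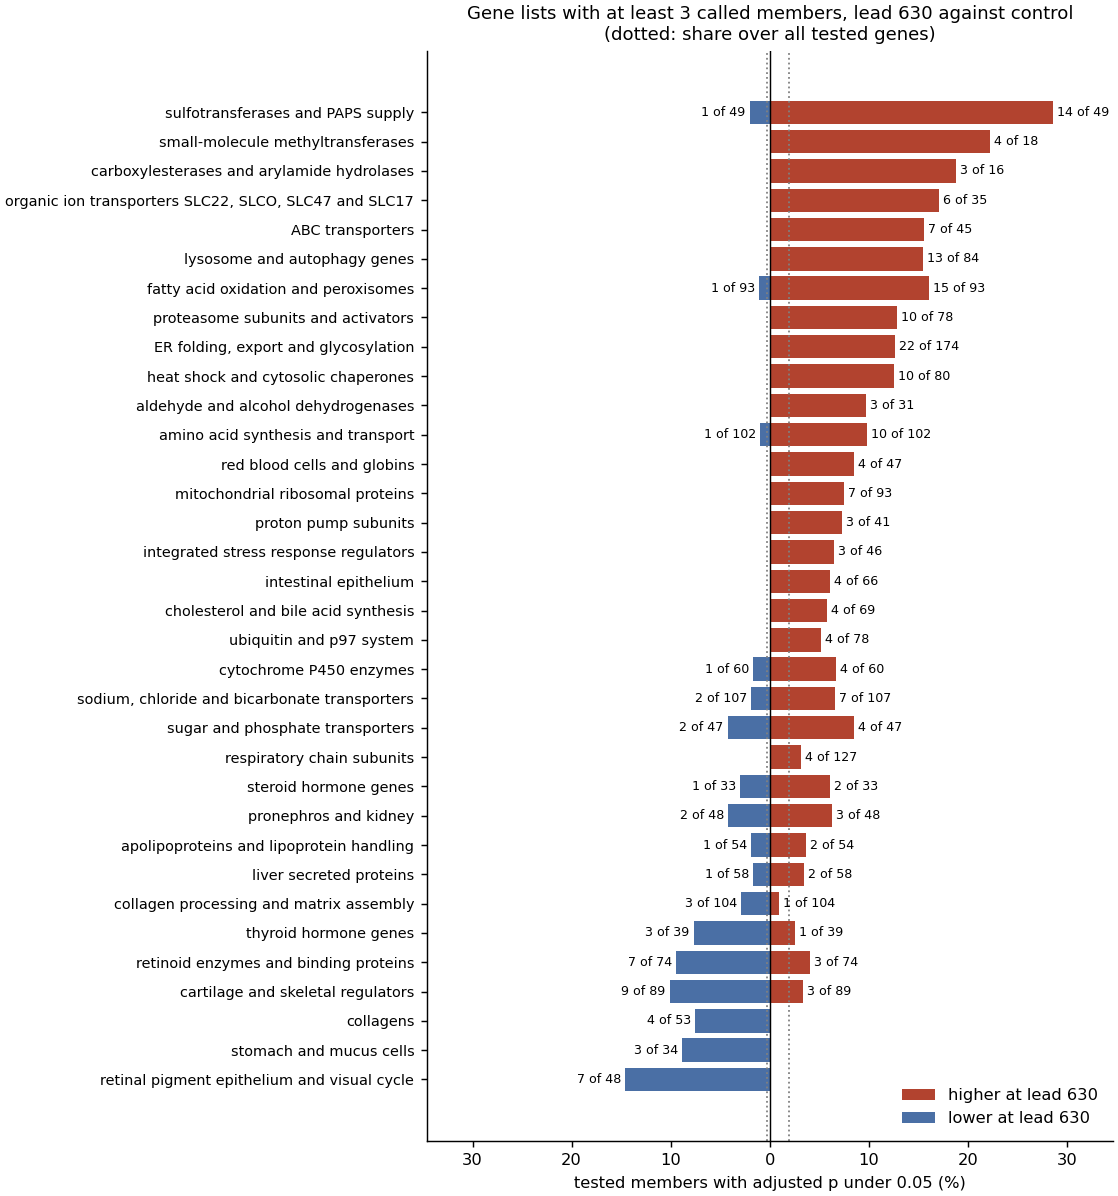
Share of tested members that rose (red, right) or fell (blue, left) at lead 630 against control, in percent, for each list with at least 3 such members; the oxidant and metal lists are not drawn, and dotted lines mark 1.98% and 0.303%, the shares over all tested genes. Most calls were increases in the sulfotransferase, methyltransferase and transporter lists. Most were decreases in the lists of the retinal pigment epithelium, stomach and mucus cells, cartilage and collagens. The stomach and mucus list had a median log2 fold change of 0.01. Lists can share genes, and the collagen decreases are also cartilage decreases. Oxidant and metal genes stay within the other lists that hold them. Without such genes 3 of 37 ABC transporter genes and 1 of 32 red blood cell genes rose, against the 7 of 45 and 4 of 47 drawn.

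The retinal pigment epithelium, the pigmented layer that recycles the light-absorbing form of vitamin A for the photoreceptors, held the largest share of decreases among the lists with at least 3 called genes: 7 of its 48 tested genes fell and 0 rose. Of the 7, 4 passed every omission, the count was 4 when lead 630 A or C or control A or C was left out, and it was 3 without controls A and B. The gene rdh5, which encodes the dehydrogenase that completes the visual cycle, fell in both homeologs. The rdh5.S copy had 4.57, 5.25, 4.15, 5.87 and 5.92 CPM at lead 630, against 10.3, 11, 9.26, 8.9 and 8.59 CPM in controls (log2 fold change −0.89 ± 0.16, SE; edgeR adjusted p = 0.00227). The rdh5.L copy had 12.9, 9.46, 8.51, 9.31 and 14.7 CPM at lead 630, against 20.7, 19.5, 19.1, 19.9 and 17.4 CPM in controls (−0.82 ± 0.15, edgeR adjusted p = 0.00313). For each copy every lead 630 library lay below every control. The isomerase gene rpe65.L had 42.4, 37.2, 30.3, 42.6 and 47.7 CPM at lead 630, against 66.5, 59.9, 67.9, 60 and 49.6 CPM in controls (−0.60 ± 0.12, edgeR adjusted p = 0.00775). The retinal G protein-coupled receptor gene rgr.S, an opsin of the pigment epithelium, had 30.6, 28.9, 20.7, 35.1 and 31.9 CPM at lead 630, against 51.1, 44.5, 48.4, 45.4 and 41.7 CPM in controls (−0.66 ± 0.12, edgeR adjusted p = 0.00365). Neither gene overlapped between the groups, although control E for rpe65.L was close to the highest lead 630 library. Without controls A and B, both rdh5 copies and rgr.S still passed, whereas rpe65.L did not (−0.57, edgeR adjusted p = 0.065).

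Other decreases among vitamin A genes were less steady. Transthyretin, a carrier of thyroid hormone and vitamin A in blood, fell for ttr.L (−0.85 ± 0.20, edgeR adjusted p = 0.0329) and passed in 2 of 10 omissions, with adjusted p up to 0.1. The omissions that kept this call were those of lead 630 B and control B. A further vitamin A enzyme, cyp27c1.S, which in zebrafish desaturates retinol, fell (−0.60 ± 0.13, edgeR adjusted p = 0.0148) and lost the call without lead 630 C alone (0.0539). The second copies rgr.L (−0.56, edgeR adjusted p = 0.0804) and cyp27c1.L (−1.16, edgeR adjusted p = 0.161) did not pass, nor did rpe65.S (−0.12, 0.873). Of 73 tested opsin and phototransduction genes of photoreceptors, 0 passed in either direction by edgeR, DESeq2 or limma-voom, and 3 reached an unadjusted p of 0.05. Over all tested genes 2.28% passed and 0.303% fell in edgeR's test, so a count of 0 among 73 does not set these genes apart. The summed level of the pigment epithelium and visual cycle list was 1625, 2242, 1840, 1855 and 2227 CPM at lead 630 and 2008, 2151, 2196, 2037 and 2486 CPM in controls, so that the groups overlapped as a sum.

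Cartilage and matrix genes had mostly negative log2 fold changes, and how many passed depended on the fit. Of 89 tested cartilage and skeletal genes, 9 fell and 3 rose, 13 had a positive log2 fold change and the median was −0.27. The 3 that rose, papss2.S, papss2.L and slc26a2.L, supply activated sulfate and are described with the sulfur genes. Among 53 collagen genes 4 fell and 0 rose, with a positive log2 fold change for 2 and a median of −0.27. These 4 are also counted among the 9 cartilage decreases. DESeq2 called 17 cartilage genes and 11 collagens lower, and edgeR with the replicate letter as a block 25 and 13. Of 104 genes for collagen processing and matrix assembly, 3 fell and 1 rose, with a median of −0.22; without controls A and B 1 fell and 0 rose, with a median of −0.09. Type II collagen, the main fibre of cartilage and the notochord sheath, was the collagen with the steadiest decrease: col2a1.L had 716, 708, 771, 697 and 601 CPM at lead 630, against 1125, 1003, 1060, 1167 and 783 CPM in controls (−0.56 ± 0.12, edgeR adjusted p = 0.0145). The groups did not overlap, and control E was far below the other controls. The col2a1.S copy averaged 548 CPM at lead 630 and 878 CPM in controls and missed the threshold (−0.68, edgeR adjusted p = 0.0589).

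Further cartilage decreases were the type IX collagen gene col9a3.S (−0.72 ± 0.16, edgeR adjusted p = 0.0203), its copy col9a3.L (−0.69 ± 0.16, 0.034), the type XI collagen gene col11a1.L (−0.35 ± 0.09, 0.0448) and both copies of sox9, the transcription factor that drives cartilage formation (sox9.S −0.33 ± 0.08, 0.0253; sox9.L −0.39 ± 0.10, 0.0461). These passed in 1 to 6 of the 10 omissions, with adjusted p up to 0.122; leaving out control A ended each of these calls, and so did leaving out lead 630 E. The number of cartilage genes that fell ranged from 2, when lead 630 E or control A, C or D was left out, to 15 without control E. Without controls A and B it was 2 for cartilage (median −0.22) and 0 for collagens (median −0.16, 12 of 53 positive), and col2a1.L no longer passed (−0.53, edgeR adjusted p = 0.0834). Summed collagen levels were 18140, 15323, 18358, 16664 and 16852 CPM at lead 630 and 23056, 19059, 19200, 19979 and 18820 CPM in controls. All 5 lead 630 sums were below all 5 control sums, with control A the highest.

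Single decreases also occurred in genes of secreted or surface proteins outside the collagens, placed together here after their values were seen; apart from thbs3.L, a matrix assembly gene, they belong to none of the lists counted. Integrin beta-like 1, a secreted protein with integrin-type repeats, had 7.14, 7.18, 6.58, 5.93 and 7.2 CPM at lead 630 for itgbl1.S, against 10.3, 10.7, 10.7, 11.6 and 11.1 CPM in controls (−0.68 ± 0.12, edgeR adjusted p = 0.00342). The gene xfrp, annotated as a follistatin-related protein, had 320, 395, 322, 343 and 340 CPM at lead 630, against 504, 438, 462, 496 and 428 CPM in controls (−0.44 ± 0.08, edgeR adjusted p = 0.00477). LOC108710285, annotated as a leucine-rich repeat protein of the immunoglobulin superfamily, had 5.76, 6.01, 6.08, 5.87 and 5.8 CPM at lead 630, against 9.95, 8.02, 9.84, 8.42 and 8.42 CPM in controls (−0.60 ± 0.11, edgeR adjusted p = 0.00229). In each of these genes the lead 630 libraries lay entirely below the controls, and each passed without controls A and B.

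Thrombospondin 3, a matrix glycoprotein, fell for thbs3.L (49.2 ± 3.73 CPM at lead 630 and 60.4 ± 3.38 CPM in controls, SD, n = 5; −0.29 ± 0.06, edgeR adjusted p = 0.0142). Midkine, a heparin-binding growth factor, fell for mdk.S (75 ± 2.43 CPM at lead 630 and 91.5 ± 6.23 CPM in controls; −0.29 ± 0.06, edgeR adjusted p = 0.00641). Beta-tectorin, a protein of the tectorial membrane of the inner ear, fell for tectb.S (4.86 ± 0.653 CPM at lead 630 and 7.37 ± 0.907 CPM in controls; −0.60 ± 0.12, edgeR adjusted p = 0.00851). Integrin beta 5 fell for itgb5.L (−0.56 ± 0.10, edgeR adjusted p = 0.00389), while itgb5.S had a log2 fold change of 0.33 and did not pass (0.101). The heparan sulfate endosulfatase gene sulf1.L fell (−0.35 ± 0.08, edgeR adjusted p = 0.0189) but not without controls A and B (−0.31, 0.136). Tenomodulin, a marker of tendons, fell for tnmd.L (−0.48 ± 0.10, edgeR adjusted p = 0.0165) and lost the call without lead 630 C (0.0555).

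**Figure D2:**
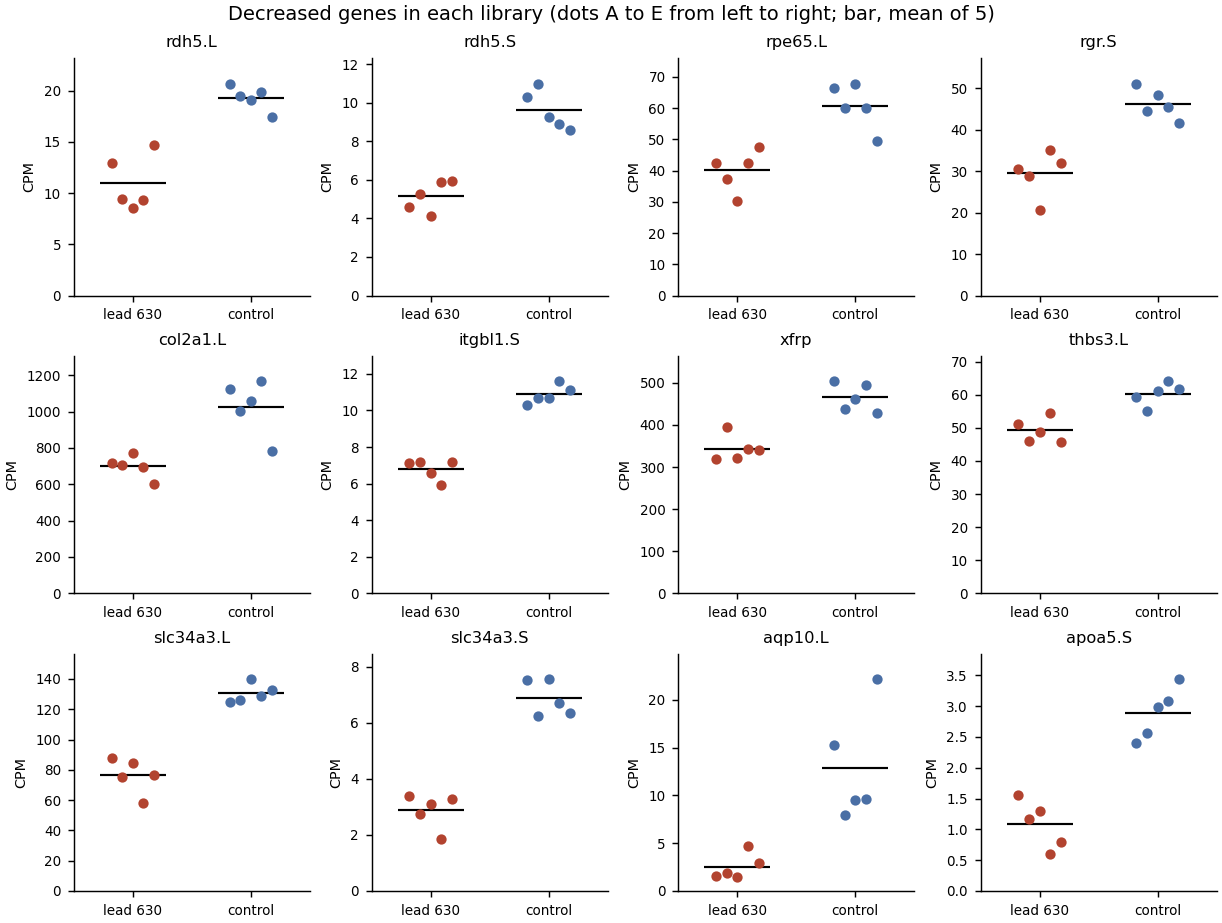
CPM of 12 genes that fell, in each lead 630 library (red, left) and each control library (blue, right); dots run from library A to E, and bars mark means of 5. The groups are separate in every panel, and of the 12 genes drawn aqp10.L has the largest ratio of means, 2.52 CPM at lead 630 and 12.9 CPM in controls.

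Phosphate transporters of the SLC34 family, which carry sodium and phosphate into epithelial cells, moved in opposite directions. The renal type, slc34a3, fell in both homeologs: slc34a3.L had 87.9, 75.4, 84.8, 57.9 and 76.4 CPM at lead 630, against 125, 126, 140, 129 and 133 CPM in controls (−0.77 ± 0.13, edgeR adjusted p = 0.00249). The slc34a3.S copy had 3.39, 2.76, 3.1, 1.87 and 3.27 CPM at lead 630, against 7.55, 6.25, 7.57, 6.72 and 6.37 CPM in controls (−1.26 ± 0.21, edgeR adjusted p = 0.00154). No lead 630 library reached the lowest control for either copy. The intestinal and lung type rose in its S copy: slc34a2.S had 2.65, 8.42, 5.2, 1.87 and 1.61 CPM at lead 630, against 0.515, 0.355, 0, 0.0809 and 0.222 CPM in controls, which lie near the floor. Its L copy rose too (0.67 ± 0.16, edgeR adjusted p = 0.0425) but lost the call when any library other than lead 630 D or control D was left out, with adjusted p up to 0.102. The 4 tested copies of the unrelated phosphate carriers slc20a1 and slc20a2 had log2 fold changes of 0.01 to 0.25 and did not pass. Among 48 tested genes of the pronephros and kidney, both slc34a3 copies were the only decreases, beside 3 increases, slc22a6.S, slc22a8.S and amn.L; the median was −0.08, and all 5 calls were kept without controls A and B.

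Decreases of the largest size that passed every omission were in noxo1.S, aqp10.L, tm4sf20.L and a mucin-like gene. The organizer subunit of NADPH oxidase 1, noxo1.S, had 0.274, 0.414, 0.838, 0.544 and 0.497 CPM at lead 630, against 3.54, 6.25, 7.11, 2.99 and 3.05 CPM in controls (−3.07 ± 0.40, edgeR adjusted p = 0.000132). The water and glycerol channel gene aqp10.L had 1.56, 1.86, 1.51, 4.72 and 2.94 CPM at lead 630, against 15.3, 7.95, 9.51, 9.63 and 22.2 CPM in controls (−2.35 ± 0.34, edgeR adjusted p = 0.000567). The membrane protein gene tm4sf20.L had 17.8, 16.8, 15.6, 21 and 14.3 CPM at lead 630, against 30.5, 74.1, 109, 40.6 and 57.6 CPM in controls (−1.88 ± 0.36, edgeR adjusted p = 0.0127). Lead 630 libraries were close to each other for tm4sf20.L while controls were widely spread, and the groups did not overlap for any of these genes. LOC108711738, annotated as mucin-3B-like, was at or under the floor in all lead 630 libraries (0.0915, 0.138, 0, 0.0605 and 0.0414 CPM), against 0.457, 1.56, 3.6, 1.21 and 0.609 CPM in controls (edgeR adjusted p = 0.00504). Of 38 mucin genes tested it was the single decrease, and the single increase was LOC108704984, annotated as mucin-2-like, with 2.93 ± 0.429 CPM at lead 630 and 0.343 ± 0.133 CPM in controls (SD, n = 5).

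Chloride channel regulators and a dual oxidase fell less steadily. The calcium-activated chloride channel regulators clca1.2.L (−5.25 ± 1.05, edgeR adjusted p = 0.0192) and clca1.1.L (−1.44 ± 0.33, 0.0408) fell. The call for clca1.2.L ended when lead 630 C or lead 630 E was omitted (0.0695 at most), and clca1.1.L passed only without control A or control D (0.102 at most). The dual oxidase gene duox2.L fell (−2.46 ± 0.60, edgeR adjusted p = 0.0479) and passed in 1 of 10 omissions, that of control A, with adjusted p up to 0.127 in the others. Of the 12 tested oxidase genes 2 fell and 0 rose, and of 34 stomach and mucus genes 3 fell and 0 rose, of which tm4sf20.L alone passed without controls A and B. Of the 34, 17 had a positive log2 fold change and the median was 0.01, so the list as a whole was not lower. The zinc importer gene slc39a4.S had 11.5, 12.1, 19.8, 10.4 and 10.8 CPM at lead 630, against 22.3, 28.6, 43, 18.9 and 32.9 CPM in controls (−1.17 ± 0.22, edgeR adjusted p = 0.00638). The groups overlapped there only through lead 630 C, which lay above control D.

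The remaining steady decreases came from unrelated families. Apolipoprotein A-V, a regulator of triglyceride clearance, had 1.56, 1.17, 1.3, 0.605 and 0.787 CPM at lead 630 for apoa5.S, against 2.4, 2.56, 2.98, 3.08 and 3.44 CPM in controls (−1.44 ± 0.27, edgeR adjusted p = 0.00465). An alpha tubulin gene, tuba1cl.3.L, had 11.4, 17, 13.3, 14.7 and 13.9 CPM at lead 630, against 22.5, 25.3, 18.9, 26.8 and 24.7 CPM in controls (−0.74 ± 0.11, edgeR adjusted p = 0.000496). Neither of these overlapped between groups. Of 19 tested alpha tubulin genes, a group formed after the values were seen, 3 fell and 0 rose, with a median of −0.13. The others that fell, tuba1c.L (−0.35 ± 0.08) and LOC108702929 (−0.66 ± 0.16), lost the call without lead 630 C (edgeR adjusted p = 0.0555 for tuba1c.L). LOC108702929 passed in 2 of 10 omissions, those of lead 630 D and control C (up to 0.109 in the others). Alpha tubulins are near-identical in sequence, so the split of reads among them is uncertain.

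Type 3 deiodinase, which inactivates thyroid hormone, fell for dio3.L (9.52 ± 0.554 CPM at lead 630 and 13.3 ± 1.53 CPM in controls, SD, n = 5; −0.48 ± 0.10, edgeR adjusted p = 0.0113). The keratin gene krt12.2.S, named keratin 16 in the authors' deposited table, fell as well (−0.38 ± 0.08, edgeR adjusted p = 0.0113), as 1 of 2 decreases among 90 epidermal genes. The small neutral amino acid transporter gene slc7a10.L (−0.75 ± 0.16, edgeR adjusted p = 0.0108) and the neuronal adhesion gene sdk2.S (−0.47 ± 0.10, 0.0108) fell, but neither passed without controls A and B (0.0635 and 0.136).

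Genes for sulfate uptake, sulfate activation, sulfate transfer by sulfotransferases and sulfur oxidation formed a single list. Among lists with at least 3 called genes, outside the oxidant and metal lists, it had the highest share of increases. The list was drawn up with earlier results of these data known. Of 49 tested members 14 rose and 1 fell; 12 of the 14 passed every omission, and 12 members rose without controls A and B. The list's median was 0.05, so that most members moved little. PAPS synthase 2, which makes the activated sulfate donor of all sulfotransferases, had 317, 305, 266, 264 and 226 CPM at lead 630 for papss2.S, against 21.3, 27, 31, 22.7 and 26.4 CPM in controls (3.42 ± 0.13, edgeR adjusted p = 3.52e-11). That was the smallest p of any gene tested. The L copy papss2.L had 32.3, 29.8, 30.1, 21.7 and 23.8 CPM at lead 630, against 11.1, 15.3, 14.3, 9.31 and 10.6 CPM in controls (1.17 ± 0.16, edgeR adjusted p = 0.000191).

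Transporters that bring sulfate into cells rose beside it. The exchanger gene slc26a2.L had 20.4, 18.7, 15.5, 15.7 and 9.15 CPM at lead 630, against 2.12, 3.27, 2.81, 2.27 and 2.11 CPM in controls (2.64 ± 0.20, edgeR adjusted p = 1.39e-07). The sulfate and oxalate exchanger gene slc26a1.L had 37.9, 27.4, 25.6, 24.5 and 26.6 CPM at lead 630, against 10.3, 9.09, 13.8, 11.7 and 11.1 CPM in controls (1.33 ± 0.14, edgeR adjusted p = 1.07e-05). The sodium and sulfate cotransporter gene slc13a1.L had 39.8, 36.2, 26.5, 19.5 and 14.9 CPM at lead 630, against 6.75, 10.2, 9.22, 4.13 and 6.09 CPM in controls (1.88 ± 0.29, edgeR adjusted p = 0.00162). All lead 630 libraries exceeded all controls for these 3 genes, and lead 630 A was the highest for each. Its copy slc13a1.S also rose (1.81 ± 0.31, edgeR adjusted p = 0.00194), with lead 630 D at 2.12 CPM under control D at 2.51 CPM. The S copies slc26a1.S (−0.17) and slc26a2.S (−0.06) did not pass. Across the SLC26 and SLC13 families, counted after the values were seen, 8 of 34 tested genes rose and 0 fell. The increases included slc26a3.2.S, annotated as a chloride anion exchanger (1.19 ± 0.16, edgeR adjusted p = 0.000171), slc26a7.L (1.33 ± 0.28, 0.0151) and slc26a5.L (0.64 ± 0.12, 0.00337). A second gene of the chloride exchanger type, slc26a3.3.S, rose by 1.93 ± 0.40 (edgeR adjusted p = 0.0161), but not without controls A and B (0.127).

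Sulfotransferases, which pass sulfate from PAPS to steroids, phenols and other acceptors, rose in part. The steroid and bile acid sulfotransferase gene sult2a1.L had 58.3, 49.3, 50.7, 58.5 and 46.2 CPM at lead 630, against 14, 13.8, 20.3, 16.3 and 22.1 CPM in controls (1.60 ± 0.13, edgeR adjusted p = 2.69e-07). The cholesterol sulfotransferase gene sult2b1.L averaged 29.7 ± 3.88 CPM at lead 630 and 9.98 ± 1.86 CPM in controls (SD, n = 5; 1.56 ± 0.16, edgeR adjusted p = 5.75e-06). The gene sult6b1l.S, which is not a member of the list, had 62.4, 119, 43.4, 46.5 and 38.5 CPM at lead 630, against 14.1, 15.6, 17.2, 7.53 and 14.6 CPM in controls (2.14 ± 0.31, edgeR adjusted p = 0.00107). None of these overlapped between groups, and lead 630 B was well above the rest for sult6b1l.S. The estrogen sulfotransferase gene sult1e1.L was the single decrease of the list (−0.47 ± 0.11, edgeR adjusted p = 0.0256); it overlapped between groups and passed in 5 of 10 omissions, ended by lead 630 C and E and by controls C, D and E (up to 0.0902).

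Genes that oxidize sulfide in mitochondria rose together with a gene that releases it. LOC108719568, annotated as thiosulfate sulfurtransferase-like, had 79.9, 67.4, 60.9, 82.1 and 45.3 CPM at lead 630, against 0.457, 0.355, 2.11, 0.89 and 1.88 CPM in controls (5.75 ± 0.33, edgeR adjusted p = 5.96e-08). Persulfide dioxygenase had 70.5, 55.1, 47.7, 53.2 and 41.9 CPM at lead 630 for ethe1.S, against 9.89, 13.4, 18.1, 13 and 13.5 CPM in controls (1.97 ± 0.15, edgeR adjusted p = 2.05e-07). Cystathionine gamma-lyase, which makes cysteine and can release sulfide, had 114, 108, 100, 106 and 93.1 CPM at lead 630 for cth.L, against 37.7, 46.7, 56.3, 44.4 and 46.9 CPM in controls (1.16 ± 0.09, edgeR adjusted p = 1.06e-07). In all 3 genes the lowest lead 630 library stood clear of the highest control. Sulfide quinone oxidoreductase rose in both copies (sqor.L 0.90 ± 0.10, edgeR adjusted p = 1.43e-05; sqor.S 0.64 ± 0.08, 5.54e-05), and so did the single-domain sulfurtransferase gene tstd1.S (1.61 ± 0.13, 3.91e-07). Of 10 tested rhodanese family genes, a group formed after the values were seen, 2 rose and 0 fell. The copies of tst and mpst had log2 fold changes of −0.10 to 0.22 and did not pass.

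**Figure D3:**
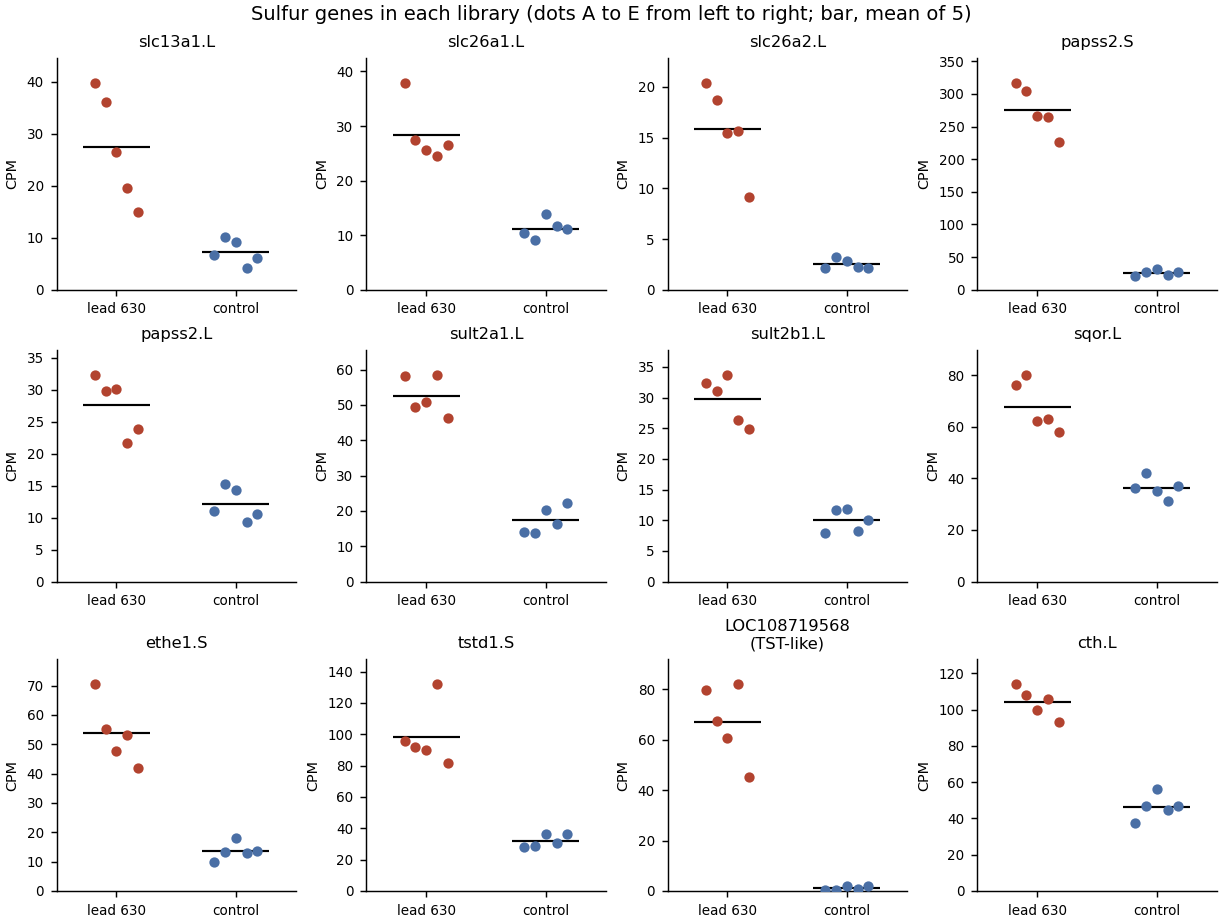
CPM of 12 genes of sulfate uptake, sulfate activation, sulfate transfer and sulfur oxidation in each lead 630 library (red, left) and each control library (blue, right); dots run from library A to E, and bars mark means of 5. All lead 630 dots lie above all control dots in each panel; papss2.S averaged 276 CPM at lead 630 and 25.7 CPM in controls.

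Methyl transfer to small molecules gave another compact group. LOC108704455, annotated as a probable thiopurine S-methyltransferase, had 142, 139, 121, 140 and 113 CPM at lead 630, against 2.69, 3.76, 6.04, 5.1 and 5.82 CPM in controls (4.79 ± 0.21, edgeR adjusted p = 1.71e-09). The second gene of that name, tpmt.L, averaged 10.2 ± 1.39 CPM at lead 630 and 4.88 ± 0.882 CPM in controls (SD, n = 5; 1.05 ± 0.15, edgeR adjusted p = 0.00025). Catechol O-methyltransferase, which inactivates catecholamines, rose in both copies, comt.L (1.50 ± 0.11, edgeR adjusted p = 4.08e-08) and comt.S (1.10 ± 0.10, 7.2e-07). In the list of small-molecule methyltransferases, which does not hold LOC108704455, 4 of 18 tested genes rose and 0 fell, the fourth being mettl7a.L (0.58 ± 0.12, edgeR adjusted p = 0.0138). The same 4 members passed every omission. Among carriers of organic ions, 6 of 35 tested genes rose and 0 fell, led by the zwitterion carrier gene slc22a4.S, with 10.8 ± 1.98 CPM at lead 630 and 1.28 ± 0.318 CPM in controls (SD, n = 5; 3.05 ± 0.19, edgeR adjusted p = 1.02e-08). Its copy slc22a4.L rose by 1.56 ± 0.18 (edgeR adjusted p = 2.07e-05). The renal organic anion carrier gene slc22a6.S had 25.1, 19.9, 13.9, 19.4 and 14.4 CPM at lead 630, against 3.66, 3.98, 3.1, 3.4 and 2.83 CPM in controls, with no overlap. Without controls A and B 4 of these carriers rose; slco1a2.L (0.113) and slc22a18.L (0.229) no longer passed, and the second had passed in 4 of 10 omissions.

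Other increases came from enzymes that reduce, oxidize or conjugate reactive small molecules. Prostaglandin reductase 1, which reduces prostaglandins and reactive carbonyl compounds, had 351, 337, 285, 314 and 243 CPM at lead 630 for ptgr1.1.L, against 31.8, 31.6, 38.1, 30.8 and 38.7 CPM in controls (3.16 ± 0.14, edgeR adjusted p = 4.43e-10). Pirin, an iron-binding nuclear protein, had 47.5, 55.6, 49.2, 43.4 and 41 CPM at lead 630 for pir.L, against 8.86, 9.23, 7.61, 5.42 and 9.59 CPM in controls (2.53 ± 0.15, edgeR adjusted p = 1.67e-08). The aldo-keto reductase gene akr1c4.S, annotated as rho crystallin-like in the authors' deposited table, had 46.2, 28.8, 30.5, 41.6 and 31.6 CPM at lead 630, against 4.92, 6.6, 9.84, 9.96 and 10.7 CPM in controls (2.08 ± 0.18, edgeR adjusted p = 2.24e-06). In each of these genes the lowest lead 630 library was above the highest control. Of the 2 tested UDP-glucuronosyltransferase genes, ugt1a1.L rose, with 33.2, 40.3, 27.2, 31.5 and 29 CPM at lead 630, against 7.78, 10.4, 7.94, 5.02 and 6.59 CPM in controls. Among 31 aldehyde and alcohol dehydrogenase genes 3 rose and 0 fell. The cytosolic retinal and aldehyde dehydrogenase gene aldh1a1.L had 129, 95.9, 113, 84.8 and 93.3 CPM at lead 630, against 42.8, 30.3, 46.7, 37.1 and 45.9 CPM in controls, which did not overlap. The fatty aldehyde dehydrogenase gene aldh3a2.L rose by 0.58 ± 0.08 (edgeR adjusted p = 0.000345), and adh1-a by 3.50 ± 0.74 (0.0177), the second without a call when control A, control C, or controls A and B were left out (0.18 at most). In the wider list of 74 retinoid genes 3 rose and 7 fell. Without controls A and B 2 rose and 4 fell, of which 1 and 3 were also called with all libraries. Among the increases dhrs13.L (0.89 ± 0.17, edgeR adjusted p = 0.0056) did not pass without controls A and B (0.0815).

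Genes for the breakdown of phenylalanine and tyrosine, which ends in fumarate and acetoacetate, were mostly higher. Fumarylacetoacetase, its last enzyme, had 75.9, 72, 66.3, 81.6 and 68.1 CPM at lead 630 for fah.L, against 24.4, 25.3, 28.1, 25.7 and 25.3 CPM in controls (1.50 ± 0.07, edgeR adjusted p = 1.38e-10). The step before it, maleylacetoacetate isomerase, is a glutathione transferase and had 95.1, 112, 139, 131 and 142 CPM at lead 630 for gstz1.L, against 13.5, 14.1, 15.3, 19.8 and 15.6 CPM in controls (2.99 ± 0.18, edgeR adjusted p = 4.5e-08). Homogentisate dioxygenase had 83.9, 64.3, 74.4, 69.4 and 71.7 CPM at lead 630 for hgd.L, against 39.3, 39.3, 48.9, 56 and 40.3 CPM in controls (0.70 ± 0.11, edgeR adjusted p = 0.00055). Groups were separate for these 3 genes. Phenylalanine hydroxylase rose for pah.S (0.97 ± 0.20, edgeR adjusted p = 0.0161), while pah.L (−0.02, 0.974) and the dioxygenase gene hpd.L (0.12, 0.563) did not pass. Tyrosine aminotransferase rose in both copies (tat.S 0.54 ± 0.13, edgeR adjusted p = 0.0296; tat.L 0.52 ± 0.13, 0.0357); tat.S passed in 5 and tat.L in 4 of 10 omissions, with both calls ended by leaving out lead 630 A or B or control D or E (up to 0.0998). Of 8 tested genes of this route, a group formed after the values were seen, 6 rose and 0 fell. Over all tested genes 1.98% rose. Among the 6, gstz1.L is also in the oxidant list. Without controls A and B neither tat.S (edgeR adjusted p = 0.0929) nor tat.L (0.0654) passed. The wider amino acid list had 10 increases and 1 decrease among 102 genes, with a median of −0.02; 5 of the increases passed every omission and 6 without controls A and B. The gene aadat.L, whose enzyme transfers amino groups in lysine and tryptophan breakdown, rose as well (18.5 ± 1.78 CPM at lead 630 and 3.46 ± 0.923 CPM in controls; 2.39 ± 0.20, edgeR adjusted p = 8.09e-07).

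Single genes of nutrient and salt handling in gut and kidney tubule rose, placed together here after their values were seen. Lactase, the milk-sugar hydrolase of the intestinal brush border, had 367, 316, 286, 227 and 226 CPM at lead 630 for lct.2.L, against 96.7, 82.9, 115, 107 and 129 CPM in controls (1.42 ± 0.15, edgeR adjusted p = 1.09e-05). The sterol uptake gene npc1l1.S had 11.8, 10.1, 11.2, 12.6 and 10.1 CPM at lead 630, against 4.06, 2.2, 3.64, 5.26 and 3.82 CPM in controls (1.56 ± 0.18, edgeR adjusted p = 3.12e-05). LOC108705058, annotated as guanylin-like, a peptide that sets salt and water secretion in the gut, had 12.4, 16.7, 15.8, 17.7 and 11.6 CPM at lead 630, against 0.572, 2.06, 2.07, 0.567 and 1.66 CPM in controls (3.37 ± 0.26, edgeR adjusted p = 3.01e-07). No control library reached any lead 630 library in these genes. The vitamin B12 and protein uptake receptor is built from amnionless and cubilin, and both components rose: amn.L by 0.97 ± 0.18 (edgeR adjusted p = 0.00393) and the cubilin-like LOC108718474 by 1.42 ± 0.19 (0.000247). The peptide transporter gene slc15a2.S (1.39 ± 0.24, edgeR adjusted p = 0.00156) and the biotin and pantothenate transporter gene slc5a6.L (0.74 ± 0.09, 3.1e-05) also rose. As a whole the intestinal epithelium list had 4 increases and 0 decreases among 66 tested genes, with a positive log2 fold change for 46 and a median of 0.12. Of the 4, lct.2.L and amn.L passed every omission, whereas slc2a2.S (0.87 ± 0.20, edgeR adjusted p = 0.0241) and cdh17.L (0.67 ± 0.15, 0.0266) passed in 4 of 10 each. Without controls A and B the list had 2 increases, the same lct.2.L and amn.L, and 2 decreases, with a positive log2 fold change for 37 and a median of 0.03. Its summed level was 6492, 4794, 6019, 4924 and 4727 CPM at lead 630 and 3970, 3977, 5971, 4688 and 5363 CPM in controls, where controls A and B were the lowest and the groups overlapped. The kidney list, as given above with the phosphate transporters, had both directions.

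Fat catabolism in peroxisomes and mitochondria had 15 increases and 1 decrease, ucp1.L, among 93 tested genes, with a positive log2 fold change for 81 and a median of 0.21; 9 increases passed every omission and 6 members rose without controls A and B. The decrease, that of the mitochondrial uncoupling protein gene ucp1.L (−1.11 ± 0.26, edgeR adjusted p = 0.041), passed in 2 of 10 omissions, those of control A and control B, with adjusted p up to 0.109 in the others; without both controls it passed (−1.40, 0.0111). Among the increases named here from this list, that of phytanoyl-CoA hydroxylase, a peroxisomal enzyme for branched fatty acids, was the largest. Its gene phyh.L had 30.4, 21.9, 28.5, 27.9 and 19 CPM at lead 630, against 10.7, 9.09, 10.7, 12.5 and 14.9 CPM in controls (1.13 ± 0.14, edgeR adjusted p = 3.56e-05). Peroxisomal dienoyl-CoA reductase rose for decr2.L (0.74 ± 0.09, edgeR adjusted p = 6.78e-05) and the peroxisomal bifunctional enzyme for ehhadh.S (0.47 ± 0.08, 0.00184). The acyl-CoA thioesterase gene acot2.S rose as well (0.78 ± 0.13, edgeR adjusted p = 0.000889). LOC108696768, annotated as like fibroblast growth factor 21, a fasting hormone of the mammalian liver, had 5.67, 4.9, 3.9, 4.9 and 5.05 CPM at lead 630, against 1.66, 1.14, 1.2, 1.94 and 1.99 CPM in controls (1.62 ± 0.24, edgeR adjusted p = 0.000357). Its groups were separate, with every lead 630 library at 3.9 CPM or more.

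Lysosome and autophagy genes had 13 increases and 0 decreases among 84 tested, 7 of them through every omission, and 10 members rose without controls A and B. Cathepsin Z, a lysosomal protease, had 186, 172, 199, 187 and 169 CPM at lead 630 for ctsz.S, against 98.7, 109, 117, 113 and 111 CPM in controls (0.73 ± 0.07, edgeR adjusted p = 2.23e-06). The lysosomal membrane gene lamp2.S had 85.8, 79.2, 82.6, 80.9 and 76.1 CPM at lead 630, against 51, 49.9, 57.3, 51.3 and 57.3 CPM in controls (0.60 ± 0.06, edgeR adjusted p = 6.69e-06). Both genes were tightly grouped within each treatment and did not overlap. The autophagosome gene gabarapl1 rose in both copies by 0.40 ± 0.06 (gabarapl1.L, edgeR adjusted p = 0.000827) and 0.35 ± 0.06 (gabarapl1.S, 0.00227).

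Proteasome subunits, which form the protease that degrades ubiquitin-tagged proteins, shifted upward by small amounts: 74 of 78 tested genes had a positive log2 fold change, the median was 0.17, and 10 rose while 0 fell. The 20S core gene psma2.S had 30.4, 31.8, 28.6, 30 and 30.4 CPM at lead 630, against 22.8, 23.2, 23, 22.9 and 24.2 CPM in controls (0.38 ± 0.05, edgeR adjusted p = 0.000233). The catalytic subunit gene psmb5.L averaged 54.3 ± 1.37 CPM at lead 630 and 41.1 ± 2.53 CPM in controls (SD, n = 5; 0.40 ± 0.06, edgeR adjusted p = 0.000233). The ATPase gene psmc1.L rose by 0.30 ± 0.06 (edgeR adjusted p = 0.00626). Of all 10, psma2.S and psmb5.L were the ones that passed without controls A and B, under which 72 of 78 still had a positive log2 fold change. The transcription factor gene nfe2l1.S, whose product in mammals raises proteasome genes when the protease is overloaded, rose slightly (67.4 ± 4.32 CPM at lead 630 and 55.4 ± 3.04 CPM in controls; 0.28 ± 0.06, edgeR adjusted p = 0.00704). Summed proteasome levels were 3509, 3196, 3185, 3392 and 3275 CPM at lead 630, all above the 2804, 2923, 2887, 3072 and 2932 CPM in controls.

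Genes for protein folding, export and glycosylation in the endoplasmic reticulum, where secreted and membrane proteins are made, also rose in part. By number the list gave more increases than any other outside the oxidant genes, but it also had the most tested members. Its share of increases, 12.6%, was above the 1.98% over all tested genes. It was below that of several smaller lists, such as 28.6% for the list of sulfate and sulfur genes. Of 174 tested members 22 rose and 0 fell, 142 had a positive log2 fold change and the median was 0.12. The chaperone gene hsp90b1.L had 140, 150, 158, 162 and 139 CPM at lead 630, against 87.8, 94.7, 90.6, 94 and 88.6 CPM in controls (0.72 ± 0.07, edgeR adjusted p = 2.52e-06). The chaperone gene hspa5.L had 84.9, 91.9, 87.3, 86.8 and 90.3 CPM at lead 630, against 58, 63.2, 54.4, 62.2 and 61.6 CPM in controls (0.56 ± 0.06, edgeR adjusted p = 1.43e-05). Its exchange factor gene hyou1.S had 19.5, 20.4, 20.7, 20.8 and 21.7 CPM at lead 630, against 15.5, 13.4, 13.3, 12.7 and 13.7 CPM in controls (0.59 ± 0.07, edgeR adjusted p = 4.86e-05). Each of these was tightly grouped within a treatment and did not overlap, and the copies hsp90b1.S (0.52) and hspa5.S (0.58) rose too. The folding factor gene creld2 rose in both copies, by 1.14 ± 0.17 for creld2.S and 0.69 ± 0.14 for creld2.L, and so did manf, manf.L by 0.69 ± 0.10 and manf.S by 0.65 ± 0.13. Of the 22 increases 15 passed every omission and 9 passed without controls A and B, when 129 of 174 members were positive with a median of 0.07. Calreticulin (calr.L, edgeR adjusted p = 0.0764), calnexin (canx.S, 0.117), the disulfide isomerase gene pdia4.L (0.113) and manf.S (0.0538) were among those that did not pass then. Summed levels of the list were 8345, 8368, 9292, 9153 and 8288 CPM at lead 630, all above the 7207, 7789, 7940, 7994 and 8157 CPM in controls.

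Chaperones of the mitochondrial matrix rose, and mitochondrial ribosomal proteins had small positive log2 fold changes. The matrix chaperonin gene hspd1.S had 82.7, 71.2, 75, 58.8 and 62.7 CPM at lead 630, against 43.3, 46.2, 42.6, 41.1 and 40.3 CPM in controls (0.71 ± 0.08, edgeR adjusted p = 2.93e-05). Its partner hspe1.S had 28.9, 21.5, 28.4, 21.8 and 23.3 CPM at lead 630, against 13.6, 15.8, 14.3, 15.2 and 14.9 CPM in controls (0.75 ± 0.10, edgeR adjusted p = 9.96e-05). The L copies hspd1.L (0.41 ± 0.08, edgeR adjusted p = 0.00351) and hspe1.L (0.45 ± 0.09, 0.0122) and the import chaperone gene hspa9.L (0.39 ± 0.06, 0.00116) rose as well, hspe1.L not without controls A and B (0.106). Of 93 mitochondrial ribosomal protein genes 87 had a positive log2 fold change, with a median of 0.20; 7 rose and 0 fell, but only mrps17.L passed every omission (0.45 ± 0.09, edgeR adjusted p = 0.00857) and 0 rose without controls A and B, when 79 of 93 were positive with a median of 0.14. Their summed level was 1825, 1767, 1860, 1822 and 1879 CPM at lead 630, above the 1461, 1610, 1605, 1741 and 1666 CPM in controls. Cytosolic ribosomal protein genes had 14 positive values among 130 tested, a median of −0.05 and 0 calls in either direction by edgeR, DESeq2 or limma-voom, and 0 at an unadjusted p of 0.05.

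**Figure D4:**
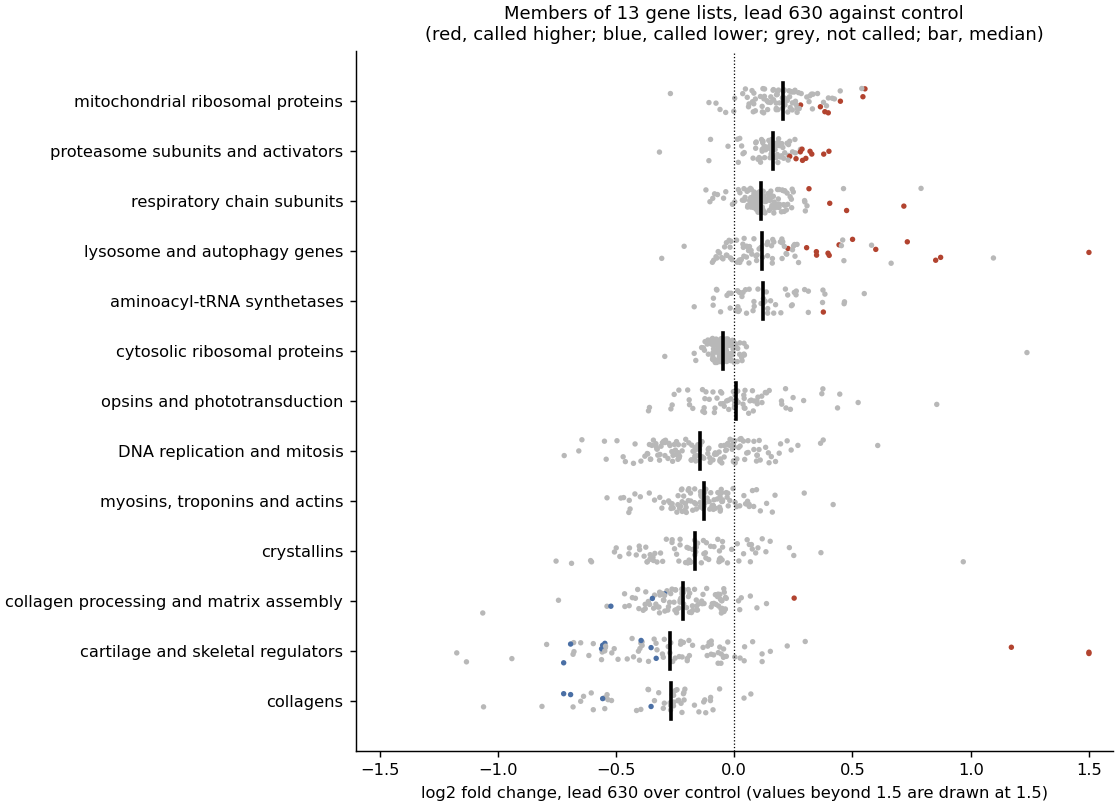
Log2 fold change of lead 630 over control for each tested member of 13 lists (red, rose; blue, fell; grey, did not pass; bar, median; values beyond 1.5 drawn at 1.5). Mitochondrial ribosomal and proteasome genes sit mostly to the right of 0, with medians of 0.20 and 0.17, and cartilage and collagen genes mostly to the left, with medians of −0.27.

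Further increases that passed every omission came from lists with 1 to 4 called genes. Over all tested genes 1.98% rose. The share was 1.49% for growth factors, 1.64% for complement and clotting, 2.2% for sugar metabolism, 2.56% for thyroid hormone genes and 3.15% for the respiratory chain. These shares of increases lie near that over all genes, so single genes are described here and not families. For serpins the share was 5%, for ubiquitin genes 5.13% and for sterol genes 5.8%. Other measures differed: 119 of 127 respiratory chain genes had a positive log2 fold change, with a median of 0.11. Without controls A and B 87 were positive, with a median of 0.04. Among thyroid hormone genes 7.69% fell, against 0.303% of all tested genes. Insulin-like growth factor binding protein 1, which holds growth factors in blood, had 92.4, 101, 82.2, 78.8 and 89.8 CPM at lead 630 for igfbp1.S, against 37, 51.7, 61.4, 39.2 and 45.7 CPM in controls (0.91 ± 0.13, edgeR adjusted p = 0.000348), as the single call among 67 growth factor genes. Iodotyrosine deiodinase, which recycles iodide, averaged 4.1 ± 0.463 CPM at lead 630 and 1.77 ± 0.596 CPM in controls for iyd.L (SD, n = 5; 1.22 ± 0.21, edgeR adjusted p = 0.00174), beside 3 decreases among 39 thyroid hormone genes, of which dio3.L alone passed without controls A and B. In sugar metabolism glucokinase (gck.L, 0.70 ± 0.10, edgeR adjusted p = 0.000353) and glucose-6-phosphate isomerase (gpi.S, 0.39 ± 0.07, 0.00383) were the 2 increases among 91 genes. In sterol handling, soat1.S, which esterifies cholesterol, rose by 0.58 ± 0.08 (edgeR adjusted p = 9.23e-05) and stard3.L, which moves it between membranes, by 0.38 ± 0.08 (0.00936). Clotting factor VII (f7.S, 0.75 ± 0.13, edgeR adjusted p = 0.00287) was the single call among 61 complement and clotting genes, and serpinb1.L (0.58 ± 0.11, 0.00561) among 20 serpins. Cytochrome c rose for cycs.L (0.72 ± 0.14, edgeR adjusted p = 0.0113), as 1 of 4 increases among 127 respiratory chain genes. Without controls A and B 2 respiratory chain genes rose, of which cycs.L alone was among these 4. The p97 cofactor gene faf1.L (0.43 ± 0.09, edgeR adjusted p = 0.0142) rose as 1 of 4 among 78 ubiquitin genes (2 without controls A and B). The mRNA decay factor gene zfp36.L rose by 0.33 ± 0.06 (edgeR adjusted p = 0.00453). Without controls A and B, gpi.S (0.0534), stard3.L (0.058), serpinb1.L (0.0655) and zfp36.L (0.0782) did not pass.

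Calls in several other lists, of tissues or of gene families, were lost with the omission of 1 library. The gut-type claudin gene cldn15.1.L rose (0.84 ± 0.18, edgeR adjusted p = 0.0125) except without lead 630 C (0.0539). The rest passed in 0 to 5 of 10 omissions, with adjusted p up to 0.14. They were increases of the pancreas-list gene gp2.L (0.75) and the proton pump gene atp6v1a.L (0.24), and decreases of the ammonia channel gene rhbg.L (−0.55), the antigen presentation gene cd74.L (−0.79) and the linker histone gene h1-10.S (−0.24), which passed in 0. Leaving out lead 630 A or C, or control A, B or C, ended each of these 5 calls.

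Many families that mark tissues or developmental programmes had no member past the threshold. Over all tested genes 2.28% passed and 0.303% fell, so a count of 0 does not set the smaller of these families apart. In edgeR's test, 0 genes passed among 134 for DNA replication and mitosis (median −0.15), 104 myosins, troponins and actins (−0.13), 44 heart genes (−0.09), 66 vessel genes (−0.13), 49 Hox genes (−0.05), 129 Wnt, Hedgehog and Notch genes (−0.11), 150 voltage-gated channels (−0.02), 35 pigment cell genes (−0.08) and 68 p53 and DNA damage genes (0.02). At an unadjusted p of 0.05, which 3502 of all 27060 tested genes reached, 18 of the replication genes were lower and 2 higher. Of the myosins, troponins and actins 20 were lower and 2 higher, and of the Wnt, Hedgehog and Notch genes 14 lower and 1 higher. For the replication and the Wnt, Hedgehog and Notch genes these totals were near the share over all genes, though mostly downward. DESeq2 called 1, 3 and 2 genes of these families lower, and limma-voom 0. The 83 crystallin genes of the lens also gave 0 calls, with a median of −0.17 that became 0.06 without controls A and B. Skeletal muscle genes gave 1 decrease among 93, mstn.2.S, an inhibitor of muscle growth. Genes of neurons and synapses gave 1 increase, the dopamine synthesis gene ddc.L, which did not pass without controls A and B (edgeR adjusted p = 0.079), and 1 decrease, the synaptic vesicle gene sv2c.L, among 105. Their summed level of 7787, 8008, 7958, 9029 and 9374 CPM at lead 630 overlapped with the 8291, 8106, 8312, 9087 and 9045 CPM in controls. The calls for mstn.2.S and sv2c.L were both lost without lead 630 C (edgeR adjusted p = 0.0598 for mstn.2.S and 0.0513 for sv2c.L).

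No pair of homeologs was called in opposite directions. Of 7076 pairs in which both copies were tested, 47 had both copies higher and 5 both lower. In 166 pairs only the L or only the S copy rose; the other copy then had a positive log2 fold change in 132, with a median of 0.17. In 40 pairs a single copy fell, and the other was negative in 34, with a median of −0.24. Reads of near-identical copies may have been shared between them, which was not tested. In the authors' deposited table for this comparison 764 genes passed an adjusted p of 0.05, 594 higher and 170 lower, of which 561 passed here; 70 were lower in both, and 0 had opposite signs.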

How the data were processed

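Per the labels' protocols, total RNA of pooled whole embryos was selected for poly(A) and made into libraries with a directional kit. Trim Galore, HISAT2, kallisto and edgeR were used, per the submitters' processing notes, which give no versions. Not given in the sources used here are the genome build, the counting tool, its annotation and its use of strand, so values of homeologs, near-identical copies and antisense partners are uncertain and no coordinates are printed. The count table deposited by the authors holds whole reads for 37018 Entrez genes; 3220 of them were at 0 throughout. Their deposited comparison table for lead 630 holds log2 fold changes, log2 mean CPM, a likelihood-ratio score and p-values for 28950 genes; its design is not given in the sources used here. That table also holds raw and adjusted p-values made by the authors, and of the calls made here 90.9% passed in it. Their lead 210 table was not used.

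The test was that of edgeR 4.0.16 (R 4.3.3): filterByExpr by group, TMM normalization, a robust quasi-likelihood fit over all 15 libraries with group as the only term, the contrast lead 630 minus control, and Benjamini-Hochberg adjustment over 27060 genes. The biological coefficient of variation was 0.142. CPM values are scaled by TMM, means carry SDs, and SEs were derived from each log2 fold change and its F statistic. Principal components used log2 CPM with a prior count of 2. The script was tested on simulated data. No pool of a group duplicated another: the chi-square per gene was 4.24 to 16.9 over 30 pairs. Whether pools had dishes or clutches of their own is not labelled, and p-values rest on the spread among pools only. The floor of 3 counts covers counting error only.

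RefSeq's gene table for assembly Xenopus_laevis_v10.1 named 33597 identifiers, the authors' table another 1468, and 1953 have no symbol; the 2 sources differ for 12815 symbols. The comparison and the 80 gene lists were chosen with earlier results of these data known, and lists are described by counts and medians without a set test. Named by rule were genes past the threshold with a mean of at least 1 CPM and a full symbol, whose groups did not overlap and which passed each omission of a library: the 15 largest decreases, the 15 largest increases outside the oxidant and metal lists, and up to 3 each way per list. Where a list had no such gene, up to 2 called members were named. Genes with LOC symbols, the smaller decreases, copies that did not pass, further members of the endoplasmic reticulum list, the grouping of secreted or surface proteins and of uptake genes into paragraphs, and the groups of tubulin, mucin, rhodanese, tyrosine, phosphate, SLC26 and thiopurine methyltransferase genes were chosen after their values were seen. Alternatives were other filters and scalings, DESeq2 1.42.0, limma-voom (limma 3.58.1), lead 630 and control without lead 210, a block for the replicate letter, each library left out, and summed homeologs. Leaving out controls A and B together was chosen after seeing the data. Oxidant and metal genes that the rule names are described only in part, and a few genes are not reported here.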

Additional observations from a re-analysis of the deposited data

Results flagged for a closer look

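Within each group of 5 libraries, the gap between the most extreme library and its nearest neighbour was compared with the group's range (Dixon's criterion) for 112 genes, which gives 224 groups. Of these, 10 had a library standing apart, and chance alone flags about 1 in 20 groups. At lead 630, library A was high for slc26a1.L (37.9 CPM, with the others at 24.5 to 27.4), for the gut peptide hormone gene pyy.L (8.88 CPM, with the others at 4.07 to 4.84) and for the mitochondrial arginyl-tRNA synthetase gene rars2.S (9.79 CPM, with the others at 8.89 to 9.01). The increase of pyy.L passed in 4 of 10 omissions of a library and that of rars2.S in 1. Neither passed without controls A and B (edgeR adjusted p = 0.133 and 0.254). Lead 630 B was high for the organic anion transporter gene slc22a8.S (16 CPM, others 9.68 to 11.1). Lead 630 E was low for the proton pump gene atp6v0e1.L (15.1 CPM, others 16.9 to 17.5).

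In controls, library A was low for the connexin gene gjb1.L (9.32 CPM, others 13.2 to 14.6) and for ddc.L (10.3 CPM, others 12.5 to 12.9). Control C was high for the lipid droplet gene cideb.L (15.5 CPM, others 9.16 to 10.4). Control D was low for the aldo-keto reductase gene akr1c8p.S (8.09 CPM, others 16.4 to 19.6) and high for krt12.2.S (71.4 CPM, others 60.5 to 62.4). Lead 630 A accounted for 3 of these values and controls A and D for 2 each.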

How the results depend on the processing

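With all libraries 535 genes were higher and 82 lower at lead 630. Counts stayed within 1.5 times of these with no filter (508 and 79), a 1 CPM filter (530 and 78), RLE size factors (517 and 83), upper-quartile scaling (491 and 100), the 2 groups alone (410 and 66), limma-voom (535 and 91) and summed homeologs (442 and 76 of 20033). With the 2 groups alone, 403 of the 535 increases and 50 of the 82 decreases were called again. The other calls were lost when the libraries of the other lead level left the fit. Increases then numbered 15 for endoplasmic reticulum genes (22 in the main fit), 4 for proteasome genes (10) and 3 for mitochondrial ribosomal genes (7). Decreases numbered 5 for the retinal pigment epithelium (7), but 6 for collagens (4) and 10 for cartilage (9). DESeq2 called 719 higher and 193 lower. Leaving out controls A and B gave 329 higher and 48 lower; that fit has fewer samples. Leaving out a single library gave 390 to 602 higher and 44 to 95 lower; the lower count moved by over 1.5 times without control C (44), lead 630 C (45) or lead 630 E (48). No called gene changed sign under RLE or upper-quartile scaling, and 282 increases and 19 decreases passed under every setting with single homeologs.

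The replicate letter as a block gave 606 higher and 142 lower, of which 505 and 71 were called without it; with it 25 cartilage genes and 13 collagens were lower. Same-lettered lead 630 and control libraries had correlations of deviations of 0.162 (A), 0.311 (B), 0.003 (C), 0.06 (D) and 0.119 (E), and 3 of 10 libraries correlated best with their own letter. The second principal component held 19.1% of the variance. On it lead 630 A to E scored 37.36, 27.67, 13.97, −18.68 and 0.82, and controls 1.18, 12.92, −13.69, −28.22 and −33.32. In both groups A and B thus lay above C, and C above D and E. Whether the letters mark a shared batch is not labelled and stays unsettled, and the main fit leaves the letter out. Of 112 genes named by rule, 5 lost the call under the block, 7 with 2 groups alone and 26 without controls A and B. Depth limits genes near the floor, such as slc34a2.S in controls and LOC108711738 at lead 630.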

Other observations

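Several increases belong to none of the groups described above. The selenoprotein gene selenow2.L had 144, 127, 145, 185 and 161 CPM at lead 630, against 22.3, 24.3, 34.7, 40.5 and 43.4 CPM in controls (log2 fold change 2.21 ± 0.21, SE; edgeR adjusted p = 9.1e-06). The hypoxia-inducible mitochondrial gene higd1a rose in both copies, higd1a.L (50.8 ± 3.38 CPM at lead 630 and 13.5 ± 3.24 CPM in controls, SD, n = 5; 1.91 ± 0.17, edgeR adjusted p = 3.3e-06) and higd1a.S (1.71 ± 0.13, 7.8e-08). The irritant-sensing channel gene trpa1.L had 7.05, 9.11, 9.22, 9.62 and 7.91 CPM at lead 630, against 3.54, 3.27, 4.67, 4.45 and 3.21 CPM in controls (1.16 ± 0.14, edgeR adjusted p = 4.6e-05). All lead 630 libraries lay above all controls for each of these genes, and each passed without controls A and B. The gamma-glutamyl hydrolase gene ggh.L, which trims stored folates in lysosomes, also rose (66.2 ± 5.61 CPM at lead 630 and 31.5 ± 3.16 CPM in controls; 1.07 ± 0.09, edgeR adjusted p = 3.88e-07).

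Cytochrome P450 genes gave 4 increases and 1 decrease among 60 and, without controls A and B, 2 increases, cyp3a5.L and cyp4b1.2.L (0.41 ± 0.07, edgeR adjusted p = 0.00227), and 0 decreases. They were led by cyp3a5.L with 134, 149, 114, 221 and 150 CPM at lead 630, against 47.7, 44.5, 58.2, 47.4 and 86.9 CPM in controls (1.43 ± 0.21, edgeR adjusted p = 0.00101). Ester-hydrolysing enzymes rose for aadac.S (0.79 ± 0.13, edgeR adjusted p = 0.000961) and ces3.4.L (0.77 ± 0.13, 0.00186). The nucleotide and drug exporter gene abcc4.L had 18.1, 18.3, 14.9, 11.9 and 11.8 CPM at lead 630, against 3.54, 3.27, 6.49, 6.72 and 4.16 CPM in controls (1.62 ± 0.20, edgeR adjusted p = 9.15e-05), with no overlap. The stress transcription factor gene ddit3.L rose by 0.55 ± 0.10 (edgeR adjusted p = 0.00465), but not without controls A and B (0.0769). The globin gene hbg2.L rose by 2.23 ± 0.50 (edgeR adjusted p = 0.0335) with overlapping groups, 75.5, 18.5, 100, 26.4 and 47.7 CPM at lead 630 and 5.37, 7.95, 12.3, 23.2 and 9.53 CPM in controls. It passed in 3 of 10 omissions of a library, those of lead 630 B and D and control D, with adjusted p up to 0.102 in the others.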
